A study of Homo sapiens with 9 samples.

Results

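The BCL2 family genes examined here were MCL1, BCL2L1, BCL2L11, BAX, BAK1, BBC3, PMAIP1, BID, BAD and BIK, chosen by symbol from the authors' gene-level table. All 10 symbols were found among its 18153 genes. The study used Illumina expression arrays on Huh-7, a line from human hepatoma, to ask how depletion of NDRG3 or HIF1A alters the response to low oxygen. All cells carried a stable lentiviral short hairpin RNA (shRNA), against NDRG3 (shNDRG3), against HIF1A (shHIF-1A) or, as the control, against GFP (shGFP). There were 9 arrays in 9 groups of 1 array, on 2 platforms. The first platform held shGFP cells in normoxia (1 array, labelled for both early times), shGFP cells held in hypoxia (1% oxygen) for 6 h or for 12 h, shNDRG3 cells after 6 h and after 12 h of hypoxia, and shHIF-1A cells after 12 h of hypoxia. The second platform held shGFP cells in normoxia for 24 h and in hypoxia for 24 h, and shNDRG3 cells in hypoxia for 24 h. Knockdown cells were thus measured in hypoxia alone. The labels do not say whether a line was a clone or a pool, and they name no separate cultures.

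Proteins of the BCL2 family decide whether the outer membrane of mitochondria is opened to release cytochrome c, the step that starts caspase activation in the intrinsic path of apoptosis. Survival members such as MCL1 and BCL-XL (encoded by BCL2L1) hold the pore formers BAX and BAK1 in check. BH3-only proteins, among them BIM (BCL2L11), PUMA (BBC3), NOXA (PMAIP1), BID, BAD and BIK, either bind the survival members or activate the pore formers. Several of these genes are controlled at the level of transcription: BCL2L11 is induced by FOXO3 and by the stress factor CHOP (DDIT3), and PMAIP1 by ATF4.

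RefSeq promoter windows (GRCh38.p14) were matched for 8 of the 10 members, all but MCL1 and BIK. The 250 bases before the start site are shown for PMAIP1 and BCL2L11, which were higher on the knockdown arrays of the first platform, and for BAX, which of the 8 held the most matches to the core sequence bound by HIF. Capitals mark ACGTG or GCGTG, the HIF core, and in PMAIP1 also TGACGT, the ATF/CREB core, on either strand. The windows lie on the plus strand at chr18:59899746-59899995, chr2:111120664-111120913 and chr19:48954625-48954874, and each is written 5′ to 3′.
PMAIP1: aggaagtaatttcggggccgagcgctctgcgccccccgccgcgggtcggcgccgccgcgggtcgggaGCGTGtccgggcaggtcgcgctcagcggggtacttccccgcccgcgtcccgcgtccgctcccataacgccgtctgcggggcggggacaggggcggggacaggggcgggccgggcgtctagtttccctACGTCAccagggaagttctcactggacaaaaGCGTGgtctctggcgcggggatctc
BCL2L11: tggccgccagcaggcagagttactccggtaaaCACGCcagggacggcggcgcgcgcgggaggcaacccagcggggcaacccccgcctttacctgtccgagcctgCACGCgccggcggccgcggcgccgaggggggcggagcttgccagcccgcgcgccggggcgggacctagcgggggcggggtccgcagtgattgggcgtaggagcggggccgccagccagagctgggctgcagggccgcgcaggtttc
BAX: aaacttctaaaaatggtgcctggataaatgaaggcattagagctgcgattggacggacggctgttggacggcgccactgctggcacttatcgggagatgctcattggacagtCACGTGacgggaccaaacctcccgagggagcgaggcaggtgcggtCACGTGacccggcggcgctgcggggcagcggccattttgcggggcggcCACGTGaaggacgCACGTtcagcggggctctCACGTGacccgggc
PMAIP1 held GCGTG at 2 places and TGACGT at 1 place, read as ACGTCA on the shown strand. BCL2L11 held GCGTG at 2 places, read as CACGC. BAX held CACGTG at 4 places, an E-box that contains ACGTG on both strands, and a further ACGTG. Over 300 bases per gene (250 before and 50 after the start site, the first window listed for a gene), 48.4% of 27305 promoters held either HIF core, 7.43% CACGTG and 8.32% TGACGT. The CHOP-ATF4 composite motif TGATGNAA was found in 3.67% of promoters and in 0 of the 8 member windows. Matches are a description of these letters and show no binding.

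Array quality and identity were examined once over all genes. The median gene intensity of an array ranged from 169 to 173 (first platform) or from 270 to 276 (second platform). All differences here were taken within a platform. NDRG3 was at 268, 215 and 233 in shNDRG3 cells at 6, 12 and 24 h, against 1278, 1456 and 1712 in shGFP cells. HIF1A was at 231 in shHIF-1A cells at 12 h, against 897. It was also lower on the 24 h shNDRG3 array, at 331 against 572 in shGFP cells, and not at 6 h (805 against 824) or 12 h (1065 against 897). Of 11 hepatocyte markers, 0 to 3 per array exceeded the detection filter (the 40th percentile of gene values, 127.3 on the first platform and 210.2 on the second), with ALB at 160 to 229 and AFP at 97.6 to 187. ALB passed on the first platform alone and AFP on no array, so defining markers of the labelled hepatoma type were at or near background. Of 11 markers of other cell types, 4 to 6 exceeded it. Their summed intensity was 4106 to 5568 on the first platform, 4348 and 4647 on the shGFP arrays of the second and 2475 on its shNDRG3 array, where the epithelial keratin gene KRT19 was at 223 against 2186 in shGFP cells at 24 h. The part of these markers in the results below was not tested.

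All 10 members exceeded the filter on all 6 arrays of the first platform. On the second, 8 exceeded it on all 3 arrays, BIK on 2 and BBC3 on 0, so 24 h values of BBC3 (168 to 197) are not above background by this measure. MCL1, BCL2L1, BAX and PMAIP1 were the members bright on all 9 arrays, with values at or above those of 72.1% to 88.6% of genes. BIK also lay in that range on the hypoxia arrays of the first platform (75.7% to 84.3%). PMAIP1 was the brightest member on the second platform. Brightness depends on the probe, so it ranks signals and not transcript levels. Within the first platform the range over the 6 arrays was widest for BIK (log2 2.21), followed by PMAIP1 (1.20), MCL1 (0.77) and BCL2L1 (0.76), and narrowest for BBC3 (0.15).

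**Figure D1:**
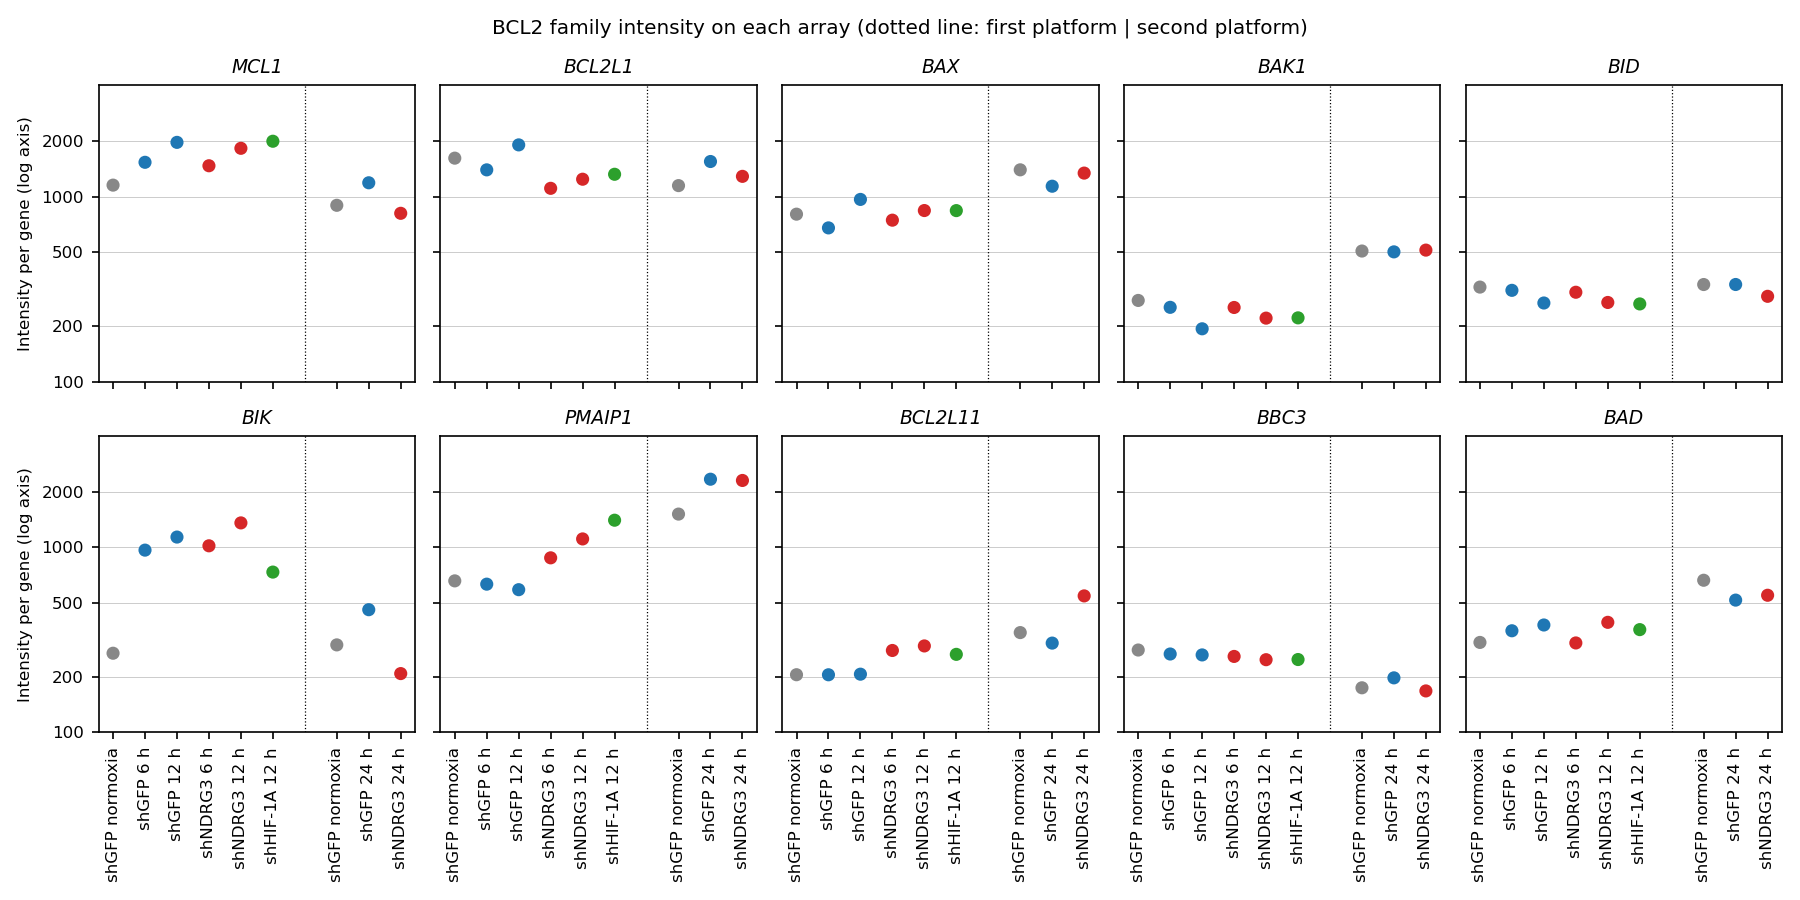
Intensity of the 10 BCL2 family genes (log axis) on each of the 9 arrays, 1 point per array, with the 2 platforms separated by a dotted line; grey is shGFP normoxia, blue shGFP hypoxia, red shNDRG3 and green shHIF-1A. BIK moved from 268 in normoxia to 967 and 1138 after 6 h and 12 h of hypoxia, and BBC3 stayed between 247 and 279 on the first platform.

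The first comparison asked how shGFP cells responded to hypoxia. BIK, a BH3-only protein gene, was the member that differed most at 6 h and 12 h, PMAIP1 slightly more at 24 h, and MCL1, a survival gene, was higher by a smaller amount at each time. In limma, fitted to the 5 shGFP arrays with 1 term for hypoxia and 1 for platform, 0 of the 10 members passed a Benjamini-Hochberg adjusted p of 0.05. Over all 12774 genes tested 0.438% passed. At an unadjusted p under 0.05, 2 of 10 members were found, BIK and MCL1, a share near the 19.4% of all genes. The 3 times stood in for replicates, so the spread in this test is that between times of 1 line.

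BIK intensity in shGFP cells was 268 in normoxia, 967 at 6 h and 1138 at 12 h of hypoxia on the first platform, and 297 in normoxia and 461 at 24 h on the second. The hypoxia arrays were above the normoxia array of their platform at each time, and the 24 h difference was the smallest. The log2 differences, taken on log2(intensity + 32), were 1.74, 1.96 and 0.58. BIK was the 1 member of 10 at least 2-fold apart at 6 h (0.952% of all genes past the filter), the 1 of 10 at 12 h (4.02% of genes), and no member of 9 was at 24 h (4.64% of genes). The difference at 6 h was larger in size than that of 99.7% of genes past the filter. Over the 3 times BIK differed by 1.31 (SE 0.27, 95% interval 0.66 to 1.95; limma adjusted p = 0.112), higher at 3 of 3 times. The adjusted p over 12 alternatives ranged from 0.00945 to 0.235, with 5 of them under the threshold. These included the fits without the shGFP 6 h array (1.27) and without either shGFP array of the second platform (1.85 both times). The last 2 are the same estimate from the first platform alone, since the platform term absorbs the array left. Without the normoxia array of the first platform the difference was 0.58, from the second platform alone. Each fit with 1 array left out keeps 1 residual degree of freedom, and the share of all genes passing in it is not given here. A test of whether the 24 h response differed from that at 6 h and 12 h gave -1.27 (SE 0.28; limma adjusted p = 0.441), and 0 of all genes passed it, with 1046 at an unadjusted p under 0.05. Time and platform cannot be told apart in that test.

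MCL1 intensity in shGFP cells was 1154 in normoxia, 1533 at 6 h and 1965 at 12 h, and on the second platform 897 in normoxia and 1188 at 24 h. The hypoxia arrays were higher than normoxia at 3 of 3 times, by 0.40, 0.75 and 0.39. The fitted difference was 0.50 (SE 0.15, 95% interval 0.13 to 0.86; limma adjusted p = 0.17). The MCL1 value equals the mean of 2 probes on either platform, traced by matching values, and these probes differed from each other. At 6 h probe ILMN_1803988 was at 2356 against 1531 in normoxia, and ILMN_1756806 at 710 against 776, log2 differences of 0.61 and -0.12. At 12 h they differed by 0.94 and 0.31. At 24 h the order was the other way round, with 0.13 for ILMN_1803988 and 0.55 for ILMN_1756806. Their brightness was also in the opposite order on the second platform (727 and 1068 in normoxia), and whether the probe IDs correspond between the platforms' tables was not settled, so fits of a probe across platforms carry that doubt. Used alone, they gave fitted hypoxia differences of 0.50 and 0.29 (limma adjusted p = 0.219 and 0.432).

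On the first platform the 5 hypoxia arrays, knockdown lines included, all lay above the normoxia array for MCL1 and BIK. This was true of 23.8% of genes. They all lay below it for BAK1, BBC3 and BID, as for 27% of genes. The members' shares, 2 and 3 of 10, are near these backgrounds.

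The pore former BAX was at 804 in normoxia, 678 at 6 h and 966 at 12 h, and at 1396 and 1138 in normoxia and at 24 h on the second platform. Its differences changed sign between times (-0.24, 0.26 and -0.29), and the fitted value was -0.12 (95% interval -0.54 to 0.31). BAK1, the other pore former, was at 275, 252 and 193 on the first platform and at 508 and 503 on the second. Its 12 h difference of -0.45 was not seen at 24 h (-0.01), and the fitted value was -0.17 (95% interval -0.53 to 0.20). Whether the HIF core matches in the BAX window bear on these values was not tested, and BIK and MCL1 had no window.

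Among survival genes BCL2L1 was at 1614, 1395 and 1904 on the first platform and at 1147 and 1548 on the second. It was lower at 6 h and higher at 12 h and 24 h (-0.21, 0.23 and 0.42), with a fitted value of 0.19 (95% interval -0.24 to 0.61). PMAIP1 was at 660, 633 and 591 on the first platform and at 1515 and 2338 on the second. In shGFP cells it was thus close to normoxia at 6 h and 12 h (-0.06 and -0.15) and higher at 24 h (0.62). Both PMAIP1 probes traced on the second platform showed this, at 1184 against 792 and 3492 against 2238. The test of the 24 h response against that at 6 h and 12 h gave 0.72 (SE 0.26; limma adjusted p = 0.538).

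BCL2L11 stayed at 205, 205 and 206 in shGFP cells on the first platform and was at 347 and 304 on the second. BID, which links death receptors to mitochondria, was at 324, 311 and 266 on the first platform and at 335 in both states on the second. BAD, a BH3-only gene regulated mainly by phosphorylation of its protein, was at 307, 354 and 381 and then at 665 and 519, with differences of opposite sign (0.19, 0.29 and -0.34). BBC3 was at 279, 265 and 262. The 95% intervals of the fitted hypoxia differences of these 4 genes lay within -0.41 and 0.38. The median difference of the 10 members was 0.01, against -0.02 over all genes tested.

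**Figure D2:**
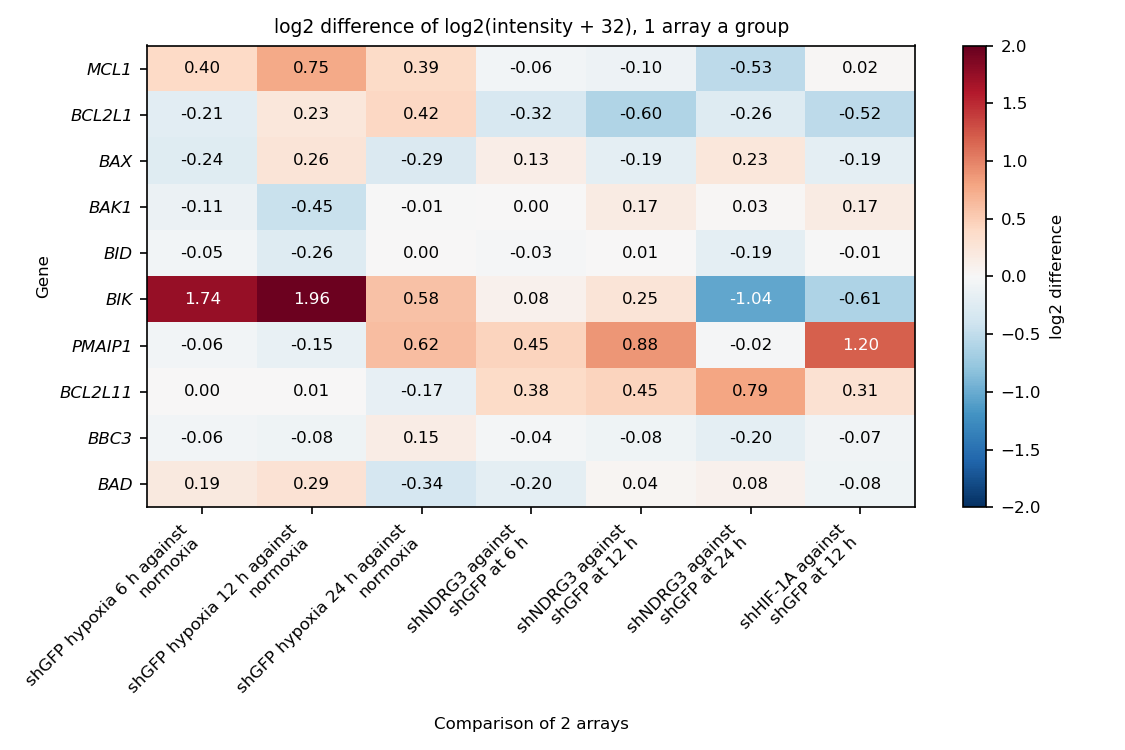
log2 difference of each member (rows) in 7 comparisons of 2 arrays (columns), on log2(intensity + 32), with the value printed in each cell. BIK is highest in hypoxia at 6 h and 12 h (1.74 and 1.96) and PMAIP1 in shHIF-1A cells (1.20).

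The second comparison asked which members differed in hypoxic cells when NDRG3 was depleted. PMAIP1 and BCL2L11, 2 BH3-only genes, were higher in shNDRG3 cells at 6 h and 12 h, and BCL2L1, a survival gene, was lower. BIK was close to control at those times and lower at 24 h. In limma over all 9 arrays 0 of 10 members passed for NDRG3, against 0.00755% of 13237 genes, and 3 of 10 members had an unadjusted p under 0.05 (BCL2L11, BCL2L1 and PMAIP1), as did 8.53% of genes. No member was at least 2-fold apart at 6 h (0.115% of genes) or at 12 h (0.168% of genes), and 1 of 9 was at 24 h (3.25% of genes), namely BIK.

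PMAIP1 was at 879 in shNDRG3 cells against 633 in shGFP cells at 6 h, at 1112 against 591 at 12 h, and at 2302 against 2338 at 24 h. The early arrays were higher and the 24 h array was level with its control. The log2 differences were 0.45, 0.88 and -0.02, the 12 h value being larger in size than that of 99.7% of genes past the filter. Over the 3 times the difference was 0.44 (SE 0.17, 95% interval 0.01 to 0.87; limma adjusted p = 0.584). Without either 24 h hypoxia array it was 0.66 (limma adjusted p = 0.000368 without shGFP and 8.82e-05 without shNDRG3, on 1 residual degree of freedom), and without either 12 h array of these lines it was 0.22 (0.911 and 0.909). Those are the extremes over 16 alternatives, and the share of all genes passing in those fits is not given here. The 24 h difference was lower than that at 6 h and 12 h by a log2 value of -0.69 (SE 0.17; limma adjusted p = 0.00803), although 19.3% of all genes passed this test. The call was lost after background subtraction (-0.77, limma adjusted p = 0.121).

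BCL2L11 was at 277 against 205 at 6 h, at 293 against 206 at 12 h and at 547 against 304 at 24 h. It was higher in shNDRG3 cells at 3 of 3 times, by 0.38, 0.45 and 0.79. The 24 h shNDRG3 value also exceeded normoxia on that platform (347). The fitted difference was 0.54 (SE 0.11, 95% interval 0.27 to 0.81; limma adjusted p = 0.446), which ranked 91 by p among 13237 genes. It kept its sign in 16 of 16 alternatives, with limma adjusted p up to 0.905. It passed without either 24 h hypoxia array (0.42, limma adjusted p = 0.0084 without shGFP and 0.00542 without shNDRG3). Those fits keep 1 residual degree of freedom, and the share of all genes passing in them is not given here. The probes behind BCL2L11 were not traced, so its BIM isoforms are not separated here.

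BCL2L1 was at 1109 against 1395 at 6 h, at 1242 against 1904 at 12 h and at 1287 against 1548 at 24 h. It was lower in shNDRG3 cells at 3 of 3 times, by -0.32, -0.60 and -0.26. The fitted difference was -0.40 (SE 0.10, 95% interval -0.65 to -0.14, limma adjusted p = 0.527). BCL2L1 passed without either 24 h hypoxia array (-0.46, limma adjusted p = 0.00545 without shGFP and 0.00287 without shNDRG3). That was again on 1 residual degree of freedom and with no share of all genes given. Its value is the mean of a bright and a dim probe on each platform, and the same 2 probes exchanged brightness between platforms. ILMN_1654118 was at 2919 in normoxia on the first platform and at 255 on the second, ILMN_1742410 at 309 and 2038. Whether these IDs correspond between the tables was not settled either. The bright probe weighed most in the mean each time. At 12 h they differed in shNDRG3 cells by -0.65 and -0.20, and at 24 h by -0.01 (ILMN_1654118) and -0.29 (ILMN_1742410).

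**Figure D3:**
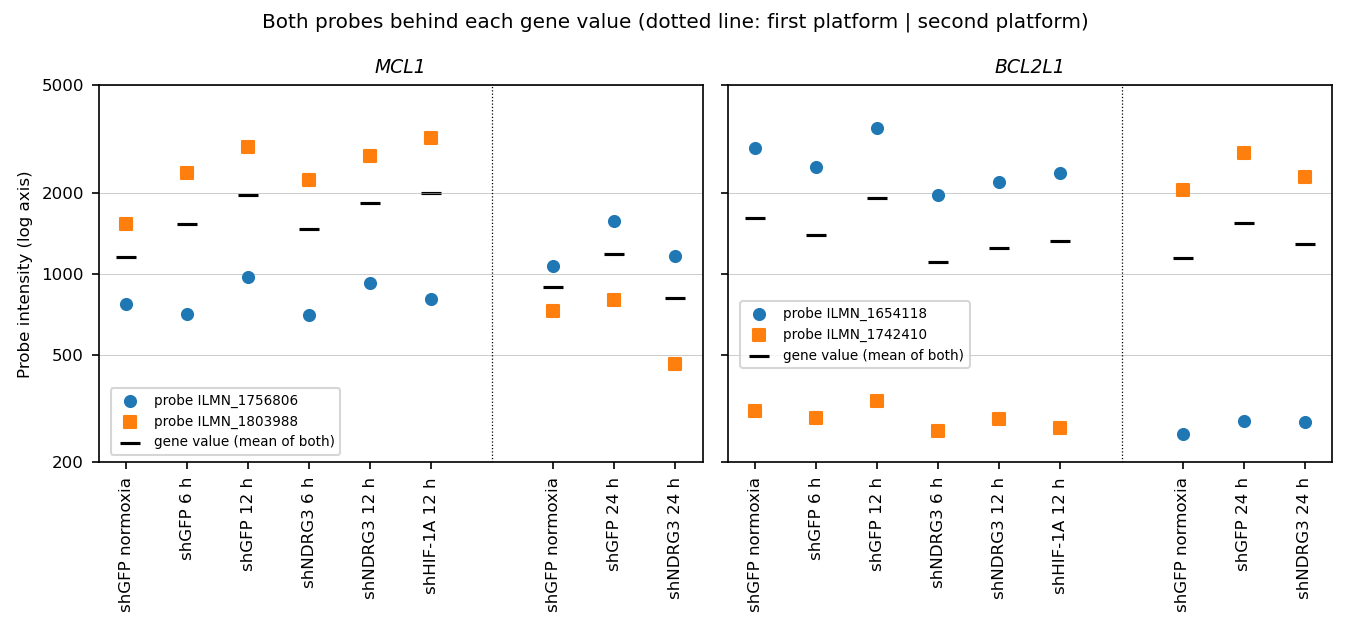
Intensity (log axis) of the 2 probes behind the MCL1 and BCL2L1 values on each array, with the gene value as a black bar and the 2 platforms separated by a dotted line. The BCL2L1 probe ILMN_1654118 lies at 2919 in normoxia on the first platform and at 255 on the second.

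BIK was at 1021 against 967 at 6 h, at 1357 against 1138 at 12 h and at 208 against 461 at 24 h. It was near its control early (0.08 and 0.25) and lower at 24 h (-1.04), where it also lay below normoxia (297) and under the filter. The fitted mean over the 3 times was -0.24 (95% interval -0.86 to 0.38) and does not describe any of the times. The 24 h difference was lower than that at 6 h and 12 h by -1.20 (SE 0.16; limma adjusted p = 1.27e-05), and this passed in 10 of 10 alternatives. Its size is less certain, between -2.12 and -0.96 over these, since the shNDRG3 value lies just under the filter of 210.2. MCL1 was at 1468 against 1533 at 6 h, at 1825 against 1965 at 12 h and at 812 against 1188 at 24 h. Its differences of -0.06, -0.10 and -0.53 were all below 0, and the 24 h value was lower than the early ones by -0.45 (SE 0.15; limma adjusted p = 0.0465), a call lost in 5 of 12 alternatives. In total 3 of 10 members passed the test of 24 h against 6 h and 12 h (MCL1, PMAIP1 and BIK, all lower), against 19.3% of genes in either direction and 9.96% lower. With 1 residual degree of freedom against 19.91 from the prior, that test leans on variance pooled across genes, and platform cannot be told apart from time. The residual is the disagreement between 6 h and 12 h on the first platform, so the p-values hold no spread of the 24 h arrays.

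BAX (0.13, -0.19 and 0.23), BAD (-0.20, 0.04 and 0.08) and BAK1 (0.00, 0.17 and 0.03) showed no steady sign or size in shNDRG3 cells. BID differed by -0.03, 0.01 and -0.19, and BBC3 by -0.04, -0.08 and -0.20. The 95% intervals of these 5 fitted differences lay within -0.32 and 0.33. The median difference of the 10 members was -0.05, against 0.01 over all genes.

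The third comparison asked which members differed in shHIF-1A cells after 12 h of hypoxia, and rests on 1 array. PMAIP1 was higher than in shGFP cells, at 1404 against 591, and BIK was lower, at 736 against 1138. The log2 differences were 1.20 and -0.61. PMAIP1 was the 1 member of 10 at least 2-fold apart, against 1.14% of genes. BIK in shHIF-1A cells remained above normoxia (268). BCL2L1 was lower, at 1321 against 1904 (-0.52), BCL2L11 was higher, at 264 against 206 (0.31), and MCL1 was at 1992 against 1965 (0.02). The other 5 members differed by -0.19 to 0.17.

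In the 9-array fit 0 of 10 members passed for HIF1A (0% of 13237 genes did, with 1433 or 10.8% at an unadjusted p under 0.05), and PMAIP1 and BCL2L1 were under 0.05 unadjusted. PMAIP1 differed by 0.98 (SE 0.28, 95% interval 0.30 to 1.66; limma adjusted p = 0.29) and BIK by -0.85 (SE 0.40, 95% interval -1.83 to 0.13; limma adjusted p = 0.534). Arrays of other times enter this fit through the NDRG3 term. Without the 24 h shNDRG3 array PMAIP1 differed by 1.10 and BIK by -0.65, and without the 24 h shGFP hypoxia array by the same amounts. Those fits keep 1 residual degree of freedom, the disagreement of the NDRG3 difference between 6 h and 12 h. It measures no spread of shHIF-1A cells, so p-values of these fits are not given. Without the 12 h shGFP array PMAIP1 and BIK differed by 0.54 and -1.34. The spread of the lone shHIF-1A array was taken to equal that of the rest.

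**Figure D4:**
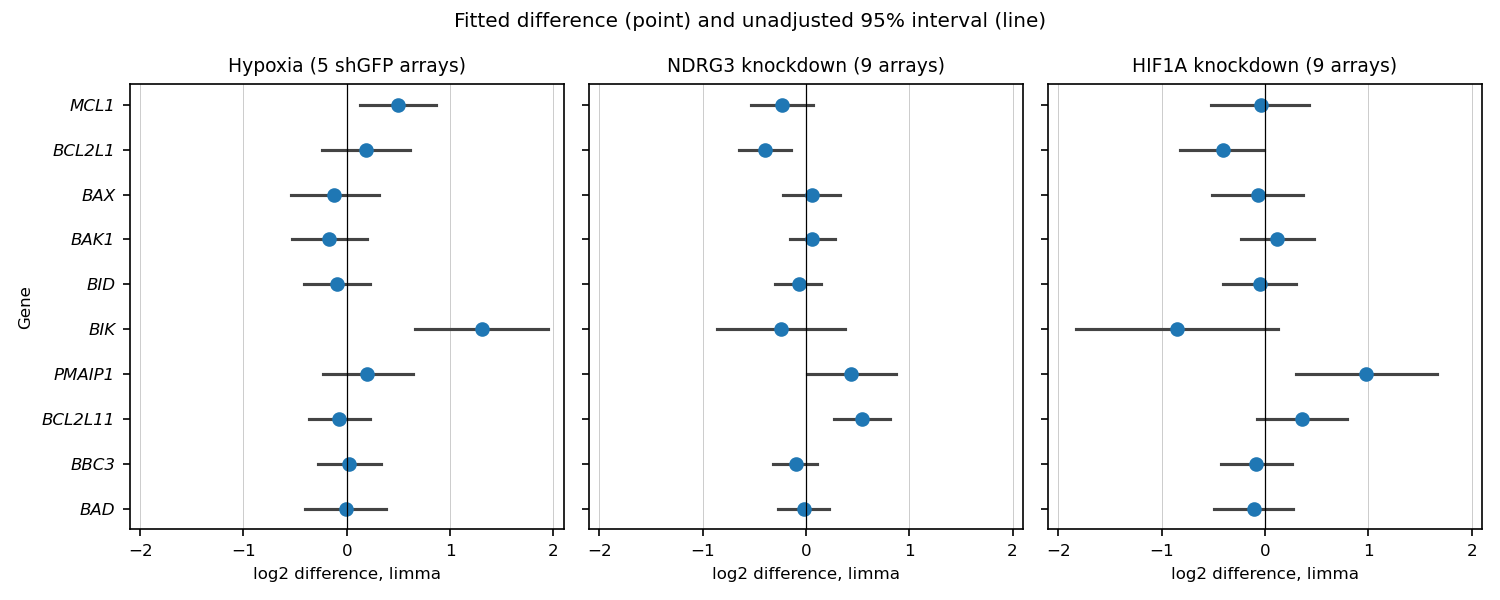
Fitted log2 difference (point) and unadjusted 95% interval (line) of each member for hypoxia, NDRG3 knockdown and HIF1A knockdown in limma. The BIK interval for hypoxia runs from 0.66 to 1.95 and the PMAIP1 interval for HIF1A knockdown from 0.30 to 1.66, and no member passed after adjustment over all genes.

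Both knockdown lines can be set side by side at 12 h, where they share the shGFP array. PMAIP1 was at 1112 in shNDRG3 and 1404 in shHIF-1A cells, BCL2L11 at 293 and 264, and BCL2L1 at 1242 and 1321. These genes lay on the same side of shGFP cells in both lines. So did BAX (-0.19 in both), BAK1 (0.17 in both) and BBC3 (-0.08 and -0.07). MCL1 (-0.10 and 0.02), BID (0.01 and -0.01) and BAD (0.04 and -0.08) had opposite signs. The shared shGFP array enters both differences, and the share of all genes on the same side is not given here. BIK lay on opposite sides, at 1357 and 736, a log2 difference of -0.86 between the lines that exceeded 98.3% of genes in size. No member was 2-fold apart between the lines, against 0.974% of genes. At 1.5-fold the members apart in hypoxia were BIK at 6 h (3.44% of genes), BIK and MCL1 at 12 h (14% of genes) and PMAIP1 at 24 h (18.2% of genes). For shNDRG3 there were 0 at 6 h (0.847% of genes), BCL2L1 and PMAIP1 at 12 h (1.41% of genes) and BCL2L11 and BIK at 24 h (12.5% of genes). For shHIF-1A there were PMAIP1 and BIK (6.28% of genes), and between the lines BIK (5.44% of genes). On the first platform the 3 knockdown arrays all lay above the 3 shGFP arrays, normoxia included, for PMAIP1 and BCL2L11, as for 5.87% of genes. They all lay below them for BCL2L1 and BBC3, as for 5.22% of genes, although BBC3 spanned only 247 to 279. All knockdown arrays were hypoxic, so the shGFP arrays differ from them in oxygen as well as in shRNA.

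Other genes of the family were followed from a list. Among 13 further BCL2 family genes, 9 were tested for hypoxia and 2 rose, BNIP3 and BNIP3L. Over all genes 0.438% passed in either direction. The median of the 9 was 0.08, against -0.02 over all genes. BNIP3 and BNIP3L encode mitophagy receptors with a BH3-like region. BNIP3L was at 519 in normoxia, 3304 at 6 h and 5532 at 12 h, and at 971 and 4426 on the second platform. It rose by 2.62 (SE 0.27; limma adjusted p = 0.0138), and BNIP3 by 2.51 (SE 0.20; limma adjusted p = 0.00634). BCL2L2, the survival gene for BCL-W, was at 1154, 1911 and 1892 and then at 984 and 1752. It was higher at 3 of 3 times (0.71, 0.70 and 0.81), with a fitted difference of 0.75 (SE 0.12; limma adjusted p = 0.0748). BCL2 itself was dim, at 236, 159 and 134 on the first platform and at 277 in both states on the second. In shHIF-1A cells at 12 h BNIP3 was at 8012 against 28731, BNIP3L at 3257 against 5532 and BCL2L2 at 1551 against 1892. These 3 genes and BIK were higher in hypoxia and lower on the shHIF-1A array. The shGFP 12 h array enters both differences, and shHIF-1A is 1 array. The share of all genes with this pattern is not given here, and its cause was not tested. In the fit for HIF1A the differences of BNIP3, BNIP3L, BCL2L2 and BIK were -1.89, -0.73, -0.29 and -0.85. Of 10 listed genes tested 0 passed for HIF1A or for NDRG3. At 24 h in shNDRG3 cells BNIP3 (27386 against 29894), BNIP3L (3939 against 4426) and BCL2L2 (1804 against 1752) were close to control, whereas BIK was not.

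**Figure D5:**
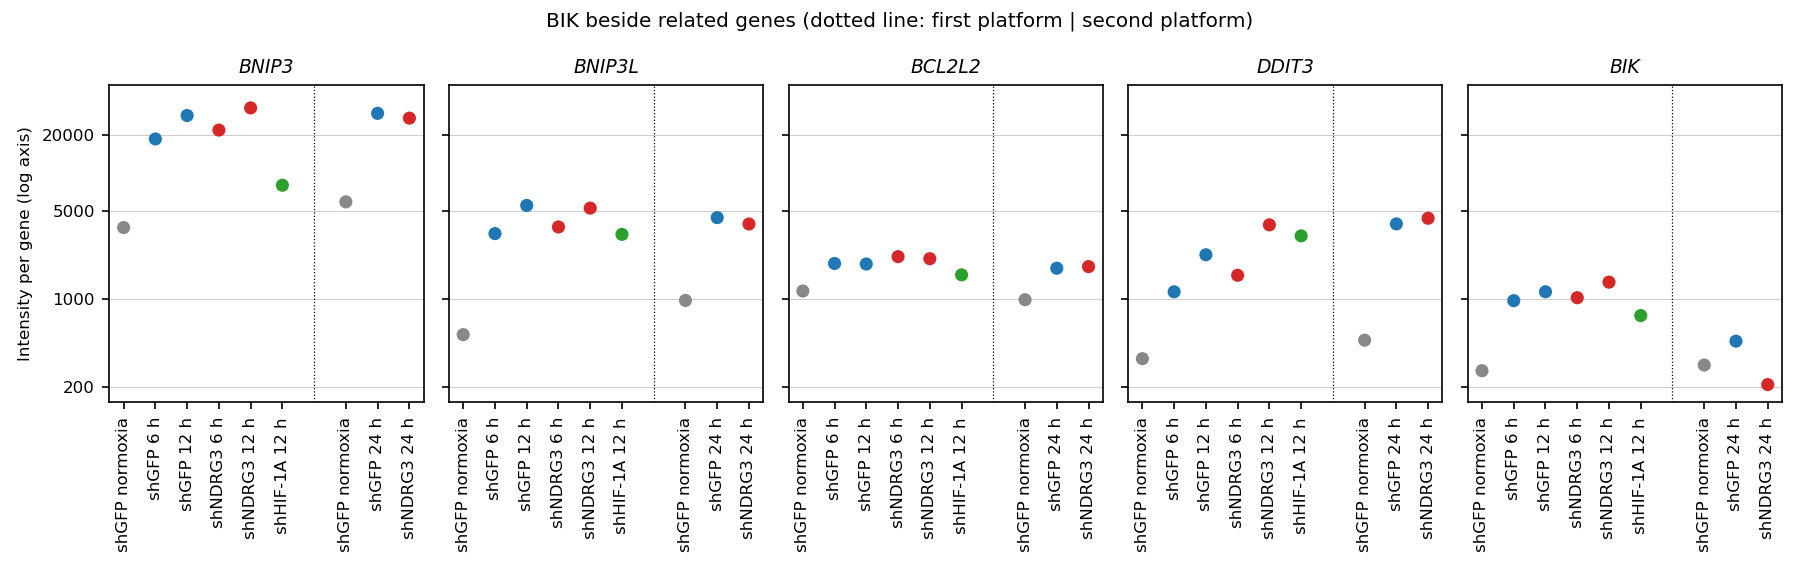
Intensity (log axis) of BNIP3, BNIP3L, BCL2L2, DDIT3 and BIK on each of the 9 arrays, with the 2 platforms separated by a dotted line; grey is shGFP normoxia, blue shGFP hypoxia, red shNDRG3 and green shHIF-1A. All 5 are above normoxia on every hypoxia array except BIK on the 24 h shNDRG3 array (208 against 297).

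Transcription factors that act on BH3-only genes were partly higher in hypoxia. Of 11 listed regulators tested 2 rose, DDIT3 by 2.51 (SE 0.31; limma adjusted p = 0.0305) and CEBPB by 1.00 (SE 0.14; limma adjusted p = 0.0447). The list median was 0.35, against -0.02 over all genes, of which 0.438% passed for hypoxia in either direction. FOXO3, an activator of BCL2L11, differed by 1.00 (limma adjusted p = 0.0809), while BCL2L11 itself stayed level in shGFP cells. DDIT3 was at 1539 in shNDRG3 cells against 1137 at 6 h, at 3878 against 2241 at 12 h and at 4376 against 3946 at 24 h, and at 3169 in shHIF-1A cells at 12 h. ATF3 was at 395 against 296, 782 against 432 and 6511 against 3427, and at 699 in shHIF-1A cells. Both were higher on each knockdown array than on the shGFP array of the same time. ATF4 was too, by 0.21, 0.31 and 0.13 in shNDRG3 cells at 6, 12 and 24 h and by 0.44 in shHIF-1A cells. PMAIP1 was higher at 6 h and 12 h alone. The share of all genes higher on each knockdown array is not given here, and the part of these factors in PMAIP1 was not tested. The list as a whole was not higher at each time in shNDRG3 cells. Of 11 regulators past the filter, 10 exceeded shGFP in the 6 h comparison and 8 in the 12 h one. In the 24 h comparison 5 exceeded shGFP and 6 fell short of it. Among these 6, CEBPB was at 6019 against 15566 (-1.37), TRIB3 differed by -0.46 and CHAC1 by -0.36. In the fits for NDRG3 and HIF1A 0 of 11 passed. ATF3 had NDRG3 and HIF1A differences of 0.70 and 0.60 (limma adjusted p = 0.427 and 0.374).

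None of 14 caspase and apoptosome genes or of 10 death receptor genes passed in any of the 3 limma comparisons, with 2, 3 and 2 of the former and 6, 2 and 1 of the latter under an unadjusted p of 0.05 for hypoxia, NDRG3 and HIF1A, where the shares over all genes were 19.4%, 8.53% and 10.8%. BIRC3, an inhibitor of apoptosis gene, had the largest differences of the former in hypoxia (0.55) and for NDRG3 (-0.60). CASP9, the caspase activated by the apoptosome, was at 637 in shHIF-1A cells against 1279 at 12 h and differed by -1.01 in the fit (SE 0.16; limma adjusted p = 0.146). ENDOG, a mitochondrial nuclease gene, was at 655 against 1133 and differed by -0.78. Among death receptor genes the largest hypoxia differences were 0.75 for TNFRSF10D, a decoy receptor, and -0.65 for the adaptor gene FADD, neither of which passed.

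Genes with patterns most like those of members were sought among 1823 genes that spanned a log2 of at least 1 over the 9 arrays, after centring within each platform. Only BIK and PMAIP1 spanned that much. For BIK they were MOB3A (Pearson r = 0.988), ARHGAP45 (0.979) and KCTD11 (0.964), and for PMAIP1 HSPA12A (0.908), GPX3 (0.907) and MAP7D2 (0.904), each over 9 arrays, of which those on 1 platform share a normalization. Between members the most negative correlations were those of BCL2L11 with BBC3 (-0.823, with BBC3 below the filter on 3 of the 9 arrays) and of MCL1 with BAK1 (-0.815), and no pair exceeded 0.8. The arrays measured RNA of whole cultures, so a lower level in every cell and a lower share of cells with a transcript cannot be told apart.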

How the data were processed

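Column-purified total RNA was amplified with an Illumina kit, per the labels' protocols. For scanner, software and normalization: not given in the sources used here. The authors deposited a probe table per platform (29377 and 48803 probes) and a gene-level table, with linear intensity values throughout. When sorted, probe values were near identical between arrays of a platform (largest log2 deviation 0.0269 and 0.004), which is what quantile normalization of the deposited intensity would leave; the lowest were 58 and 104.7, which leaves a background in the values that shrinks differences of dim genes. Signal over background sets the precision of an array. Of the members 3 equalled 1 probe on both platforms, 2 the mean of 2 probes, PMAIP1 1 probe and then 2, and 4 were not traced (tolerance 0.0002 of the highest value or an intensity of 0.02, times 2 for a mean). Of all symbols 15058 were current in RefSeq (GRCh38.p14), 2282 were renamed through a synonym and 813 kept.

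Values were analysed as log2(intensity + 32). Genes under the 40th percentile of their platform on every compared array were left out. With limma 3.58.1 in R 4.3.3, linear models with moderated variances (threshold 0.05 for Benjamini-Hochberg adjusted p, over all genes) were fitted to the 5 shGFP arrays (platform block, 1 hypoxia term) and to all 9 arrays (a mean per condition and time, an NDRG3 and a HIF1A term), each with 2 residual degrees of freedom, and with a further 24 h term, leaving 1. With 2 residual degrees of freedom the residual error is the variation between times and platforms within a line. With 1 it is that between 6 h and 12 h alone. Neither is that of repeat cultures. Comparisons of 2 arrays carry no test. On simulated data over the same genes limma recovered 100% of genes changed by a log2 of 1 for hypoxia, 99% for NDRG3 and 90% for HIF1A. It recovered 51% for the 24 h term of hypoxia and 100% for that of NDRG3. It called 16, 32, 24, 29 and 17 unchanged genes. The simulated spread followed the fitted model, with independent noise drawn from variances that were already moderated. In the real HIF1A fit 0 genes passed, with BNIP3 at -1.89, and BIK at 1.31 did not pass for hypoxia. The simulated shares thus do not give the power of the real fits, and 0 of 10 members passing does not show that members were unchanged.

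Members, gene lists and tests were chosen with earlier results of these data known. All members and further BCL2 family genes could be named. Other lists give counts, the genes called and the 2 largest differences. FOXO3, ATF4, TRIB3, CHAC1 and the probes were named after their values were seen. XIAP was not analysed here. One further gene list is not reported here. Alternatives covered the filter, the pseudocount, background subtraction, centring, the variance prior, the fold threshold, each array left out and, chosen after seeing the data, each probe of MCL1 and BCL2L1 alone.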

Additional observations from a re-analysis of the deposited data

Results flagged for a closer look

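A limma test over all 9 arrays set the difference between shNDRG3 and shGFP cells at 24 h against that at 6 h and 12 h, and 3 members passed. Its residual is the disagreement between 6 h and 12 h on the first platform, so its p-values hold no spread of the 24 h arrays. Of all genes 12.5% were at least 1.5-fold apart between shNDRG3 and shGFP at 24 h, against 0.847% at 6 h and 1.41% at 12 h. BIK was lower at 24 h by a further -1.20 (limma adjusted p = 1.27e-05), PMAIP1 by -0.69 (limma adjusted p = 0.00803) and MCL1 by -0.45 (limma adjusted p = 0.0465). The size for BIK ran from -2.12 to -0.96 over 10 alternatives, its 24 h value in shNDRG3 cells (208) being under the filter of 210.2. PMAIP1 missed the threshold in 1 of 10 alternatives and MCL1 in 5 of 12. For BIK the 3 differences were 0.08, 0.25 and -1.04, for PMAIP1 0.45, 0.88 and -0.02, and for MCL1 -0.06, -0.10 and -0.53. Of all 13237 genes 19.3% passed the same test, and the 24 h arrays lie on a platform of their own.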

How the results depend on the processing

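Counts of members that passed in limma depended on single arrays. For hypoxia the count was 0, and 1 (BIK) with the 60th percentile filter (adjusted p = 0.0462) and with a variance trend (adjusted p = 0.0496), and between 0 and 1 when each array was left out. It was 1 without the shGFP 6 h array and without either shGFP array of the second platform, which give the same estimate. For NDRG3 the count was 0, and between 0 and 3 with each array left out: without either 24 h hypoxia array BCL2L1, BCL2L11 and PMAIP1 passed. For HIF1A it was likewise between 0 and 3, the same arrays giving BCL2L1, PMAIP1 and BIK. These fits keep 1 residual degree of freedom, and for HIF1A their error holds no spread of shHIF-1A cells. The share of all genes that passed in each is not given here. Those counts therefore cannot be read as a result about the members. With the 60th percentile filter 148 of 8568 genes passed for hypoxia, against 56 of 12774 in the main fit. For the NDRG3 test of 24 h against 6 h and 12 h the count was 3, 3 without each array that could be left out, and 1 (BIK) after background subtraction; MCL1 also missed the threshold with no pseudocount, centring, the variance trend and its probe ILMN_1756806 alone. With probe ILMN_1654118 alone BCL2L1 passed that test (0.49, limma adjusted p = 0.0426), a value that joins its bright signal on the first platform to its dim one on the second. None of the 3 members that passed changed sign under any alternative run. At 1.5-fold in place of 2-fold, members apart were 2 at 12 h and 1 at 24 h of hypoxia, 2 at 12 h and 2 at 24 h for shNDRG3, 2 for shHIF-1A and 1 between the lines. At 2-fold, for shNDRG3 at 24 h, there were 0 with the larger pseudocount and 2 after background subtraction (BCL2L11 and BIK). The causes of these shifts were not tested. No paired analysis was possible because no replicate number distinguishes arrays of a group; matching by time and by platform is already part of the fits.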
